A study of Mus musculus with 12 samples.

Results

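The PPAR, PGC-1 and ERR genes are the nuclear receptors and coactivators that control oxidative metabolism, and they were followed here through whole kidneys of mice with polycystic kidney disease. The 9 genes were the 3 peroxisome proliferator-activated receptors (Ppara, Ppard and Pparg), their heterodimer partner Rxra, the coactivators Ppargc1a and Ppargc1b, and the 3 estrogen-related receptors (Esrra, Esrrb and Esrrg). They were chosen by gene symbol from the 54532 genes of the count table, and all 9 passed the cutoff on low counts that left 24642 genes for testing. Their raw counts ran from 70 to 4083 reads per gene and mouse.

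PPARs are fatty acid-sensing receptors that bind DNA as heterodimers with a retinoid X receptor: PPARα switches on fatty acid oxidation, PPARγ drives fat storage genes in adipocytes, and PPARδ is broadly expressed. The PGC-1 proteins bind no DNA themselves but are recruited by PPARs and ERRs, and the ERRs are orphan receptors that bind the promoters of genes for the citric acid cycle and the respiratory chain. Kidney tubules, above all the proximal tubule, depend on fatty acid oxidation for their energy, and most of the energy is spent on salt and solute transport.

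The data were RNA-seq read counts of whole kidneys from 12 mice aged 18 days on a C57BL/6 J background, with 3 mice in each of 4 groups. All 12 mice carried the Pkd1 RC missense allele. In the noncystic groups the other Pkd1 allele was floxed and no Cre was present, which leaves it working (Pkd1 RC/+), whereas in the cystic groups Ksp-Cre, which is active in kidney tubule epithelium, deleted it (Pkd1 RC/-). Within each state, Pkd2 was either intact (+/+) or lacked the miR-17 motif of its 3′-UTR on both alleles (Δ17/Δ17), so the study asked whether relieving Pkd2 of miR-17 repression changes the diseased kidney. Cystic and noncystic mice thus differed by Cre as well as by Pkd1, which cannot be told apart. The labels number the mice 19 to 30 without naming sex, litter or batch, and values below follow the order of those numbers. The p-values therefore measure the spread between these mice only.

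Total counts ranged from 18800307 to 24453033 per mouse. The targeted gene followed the labels: Pkd2 measured 194 to 219 CPM in noncystic Pkd2 +/+ mice against 270 to 286 CPM in noncystic Δ17/Δ17 mice, and 213 to 233 CPM against 307 to 337 CPM in the cystic groups, where CPM is the read count relative to library size after TMM scaling. In edgeR's quasi-likelihood test the rise of Pkd2 passed in the cystic groups (adjusted p = 0.0025). In the noncystic groups the log2 difference of Pkd2 was 0.40 ± 0.08 (SE), with an unadjusted p of 8.2e-05 in that test. It did not pass after adjustment (adjusted p = 0.77), although the mice did not overlap. Over the alternatives its adjusted p ran from 0.0015 to 0.9996. Pkd1 counts (50.4 to 81.6 CPM over all mice) do not check the deletion, since counts were summed over the whole gene. Markers of the main kidney cell types were all present. Other tissue was present unevenly: the summed fat markers were 653 CPM in noncystic mouse 20 and 8.02 CPM in cystic mouse 29, against 59.4 to 324 CPM elsewhere, and the summed adrenal markers were 61.9 CPM in cystic mouse 27 and 433 CPM in cystic mouse 30, against 3.89 to 7.15 CPM elsewhere.

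Because the genotype studied removes a miR-17 motif, the same motif was searched in the 9 regulators. The microRNA and the matching sites in Ppara and Pkd2 are shown so that the match can be read letter by letter, with the seed of the microRNA (bases 2 to 8) and the letters that pair with it in capitals.
mmu-miR-17-5p: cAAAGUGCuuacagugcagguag
Ppara 3′-UTR: gaaaactaatctGCACTTTttaac
Pkd2 3′-UTR: ttataattttctGCACTTTaattt

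The microRNA sequence was taken from RefSeq, and the sites from GENCODE M21 transcripts of the GRCm38 genome. Ppara was the only one of the 9 genes with a seed match in its longest annotated 3′-UTR. That match lies at chr15:85801668-85801674 on the plus strand, in exon 8 and 410 bases after the stop codon. The single match in Pkd2, at chr5:104503821-104503827 in exon 15, begins 133 bases after the stop codon. Its seed match is followed by an A, which extends the pairing class by a position, whereas that of Ppara is followed by a T. Of all 16767 tested genes with an annotated 3′-UTR, 13.11% held at least 1 seed match, so 1 of 9 is near the background, and the letters alone do not show that miR-17 acts on Ppara. The search covered 3′-UTRs of 204 bases (Pparg) to 3930 bases (Ppargc1a).

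In the GRCm38 annotation the 9 genes lie on 9 chromosomes. The PPAR genes are Ppara at chr15:85734983-85802819 on the plus strand, Ppard at chr17:28232700-28301474 (plus) and Pparg at chr6:115360951-115490399 (plus), and Rxra is at chr2:27676440-27762957 (plus). Ppargc1a is at chr5:51454250-51567726 (minus) and Ppargc1b at chr18:61298136-61400431 (minus). The ERR genes are Esrra at chr19:6910977-6921813 (minus), Esrrb at chr12:86361117-86521628 (plus) and Esrrg at chr1:187608791-188214885 (plus).

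To compare the genes with one another, counts were divided by the length of the annotated exons (CPM per kb). Esrra ranked highest with a mean level of 38.3 ± 7.86 CPM per kb (SD, n = 12), followed by Rxra at 22.5 ± 2.43, Ppargc1a at 16.2 ± 3.99, Esrrg at 11.7 ± 2.03 and Esrrb at 9.64 ± 2.94. The lowest were Ppard at 5.89 ± 0.54, Ppara at 5.86 ± 2.04, Pparg at 4.09 ± 2.35 and Ppargc1b at 2.35 ± 0.69. The first 3 places were separate from their neighbours in all 4 groups, but with the longest transcript as length Ppargc1a overlapped Esrrg in both cystic groups. Esrrg and Esrrb overlapped in both noncystic groups, and Ppard, Ppara and Pparg formed a chain of overlapping neighbours in noncystic Pkd2 +/+ kidneys. The ERR and PGC-1 families each had a leading member. Esrra made up 64.9% ± 1.53 (SD, n = 3) of the summed ERR level per length in noncystic Pkd2 +/+ kidneys, and Ppargc1a made up 88.6% ± 0.94 of the summed PGC-1 level. By annotated exon length no PPAR led its family in those kidneys. Ppara made up 35.4% ± 8.81, Pparg 34.5% ± 11.2 and Ppard 30.1% ± 3.82 of the PPAR sum, with overlapping ranges. With the longest transcript as length, Ppard instead had the highest mean there, 11.1 CPM per kb. Pparg then had 8.83 and Ppara 7.37 CPM per kb, still with overlapping ranges. The exons of Esrra overlap those of Trmt112 on the other strand and those of Mir6990 on the same strand. How the counting treated strands was not given in the sources used here. The count of Esrra may therefore be affected by these overlaps, in a direction that was not examined.

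**Figure D1:**
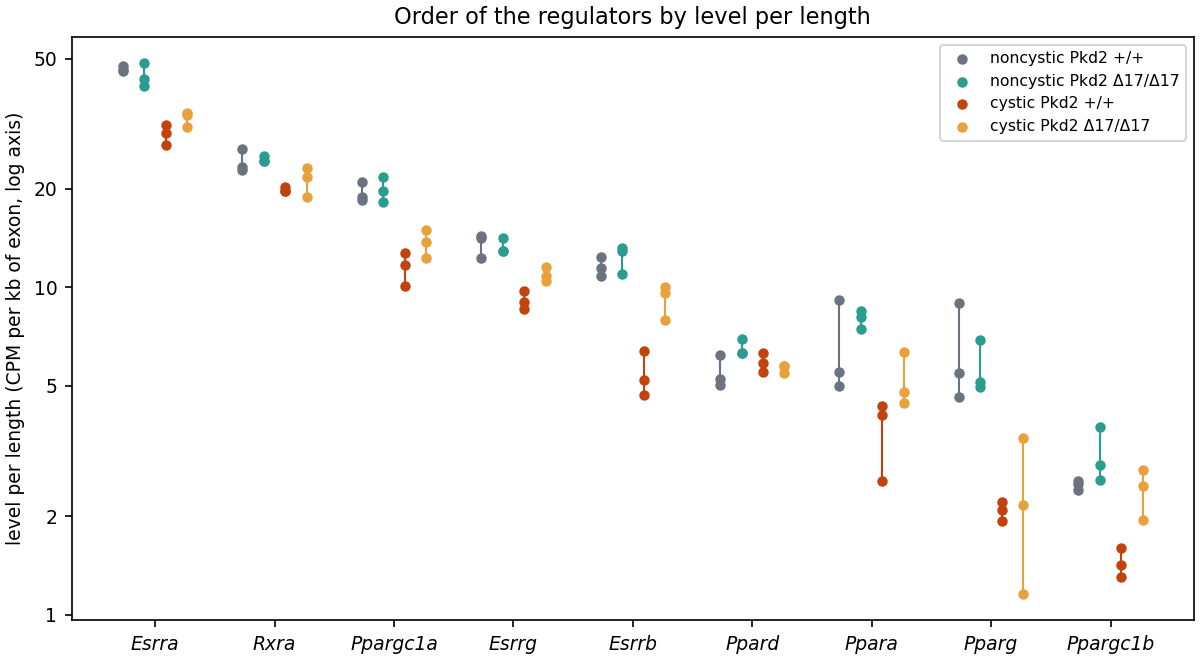
Level per length of the 9 regulators on a log axis in CPM per kb of exon; each point is 1 mouse, a line spans the 3 mice of a group, and colours mark the 4 groups. Esrra stands highest and Ppargc1b lowest by the mean over 12 mice, and Ppard is the gene whose 4 groups lie closest together.

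The first comparison asked what cystic disease does to these genes when Pkd2 is intact. Of the 9 regulators, 8 were lower in cystic Pkd2 +/+ kidneys than in noncystic Pkd2 +/+ kidneys, and the exception was Ppard. Pparg and Esrrb showed the largest falls, of 3.06-fold and 2.13-fold, and Rxra the smallest, of 1.21-fold. The median log2 fold change of the 9 genes was -0.76, against 0.02 for all genes tested. For comparison, 31.1% of all genes passed the test in either direction, and 14.2% passed it as lower. All p-values below are from edgeR's quasi-likelihood test, Benjamini-Hochberg adjusted over all tested genes and called below 0.05. The count was 8 of 9 also without mice 20 and 29 and without mice 27 and 30. In whole kidneys, fewer cells of a type and less RNA per cell cannot be told apart.

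**Figure D2:**
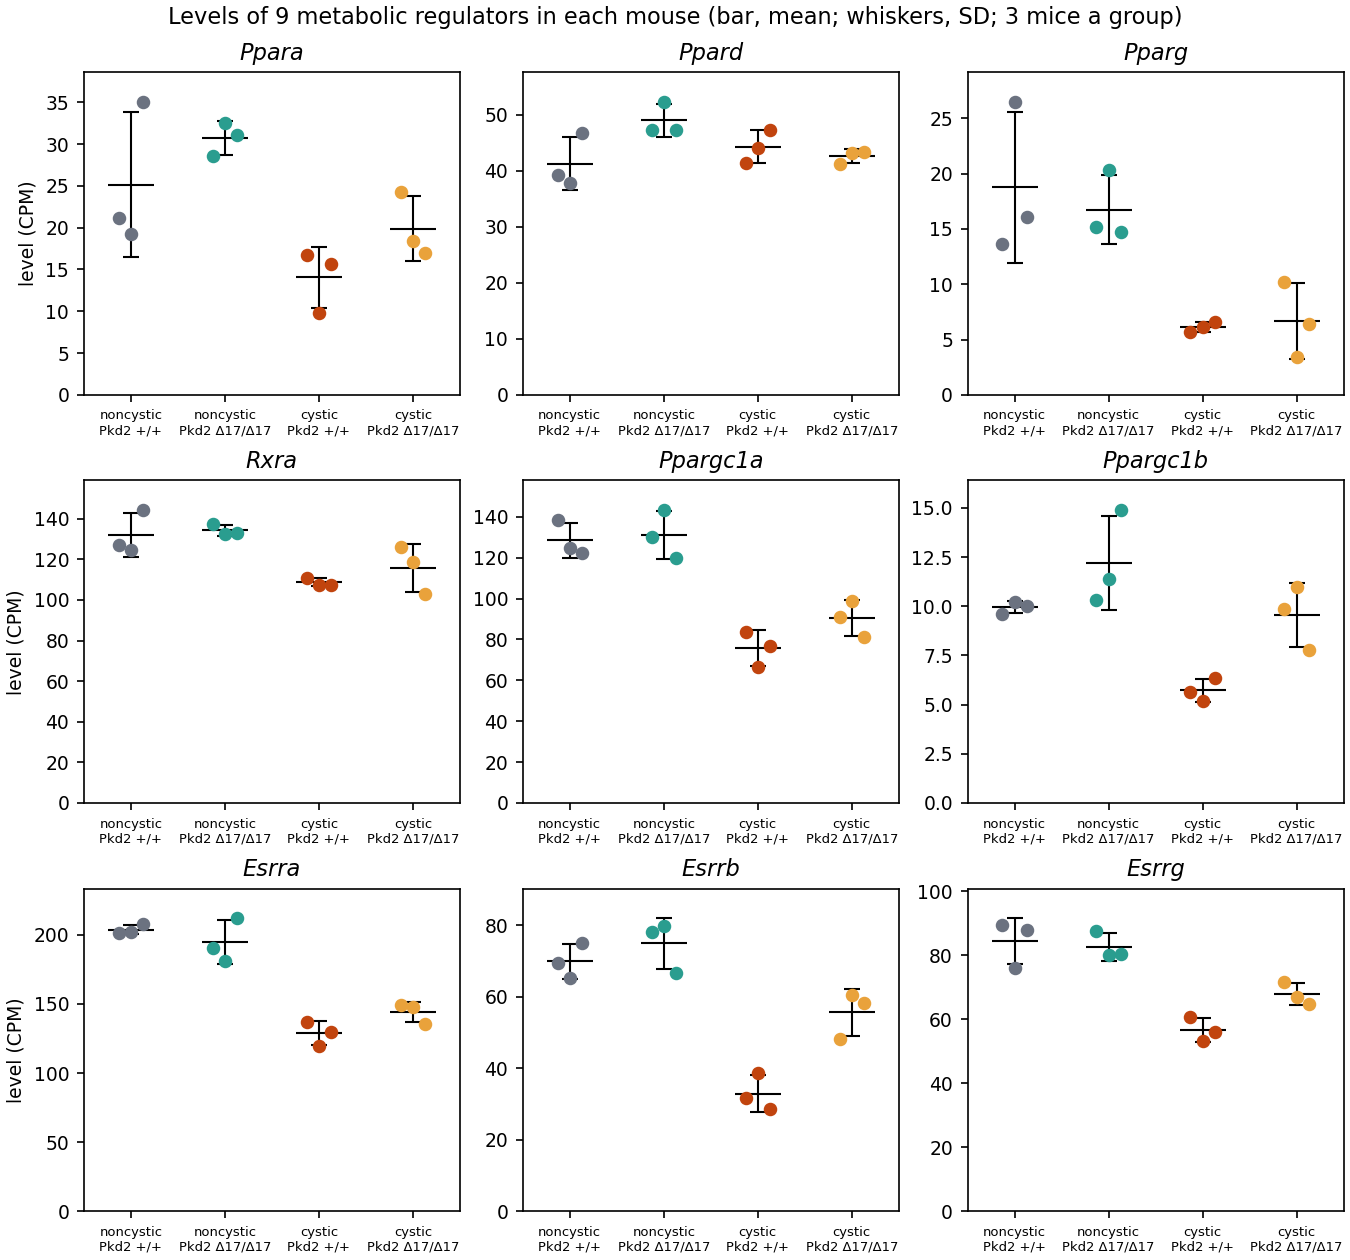
Level in CPM of each of the 9 regulators in every mouse, with 1 panel per gene and 4 groups per panel; points are mice, the horizontal bar is the group mean and whiskers are the SD of 3 mice. The cystic Pkd2 +/+ points lie below the noncystic Pkd2 +/+ points in every panel but that of Ppard.

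Ppara, the receptor that induces fatty acid oxidation, measured 21.1, 19.2 and 35.1 CPM in noncystic mice 19, 20 and 21 and 16.7, 9.84 and 15.6 CPM in cystic mice 25, 26 and 27. The groups did not overlap, although mouse 21 stood well above the other noncystic mice. Its log2 fold change was -0.84 ± 0.22 (SE), or 1.79-fold lower, with an adjusted p of 0.0064. Without mouse 21 the log2 fold change was -0.54 and the adjusted p 0.045, the highest of a range that began at 5.4e-10 over its alternatives.

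Ppard measured 39.3, 37.7 and 46.6 CPM in the noncystic mice and 41.4, 44.1 and 47.3 CPM in the cystic mice. The groups overlapped, and the log2 difference of 0.10 ± 0.09 (SE) did not pass the test (adjusted p = 0.45). When counts were scaled to library totals instead of TMM factors, the median of all genes moved from 0.02 to 0.18, and Ppard then passed as higher by 0.26 (adjusted p = 0.040, with a range of 0.035 to 0.93 over its alternatives).

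Pparg, best known as the regulator of adipocyte formation, measured 13.7, 26.5 and 16.1 CPM in the noncystic mice and only 5.69, 6.17 and 6.54 CPM in the cystic mice. Its log2 fold change of -1.61 ± 0.30 (SE) was the largest of the 9, with an adjusted p of 0.00045. The highest Pparg level was that of mouse 20, the mouse with the highest fat markers. Of the 8 fat markers, 5 fell with Pparg, while Lep (leptin) rose and the other two did not pass. Their sum was 258 to 653 CPM in the noncystic mice and 59.4 to 118 CPM in the cystic mice. Without mice 20 and 29 the log2 fold change of Pparg was -1.28, with an adjusted p of 0.00030 (2.3e-21 to 0.0030 over its alternatives). The part of fat tissue in this result was not tested.

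**Figure D3:**
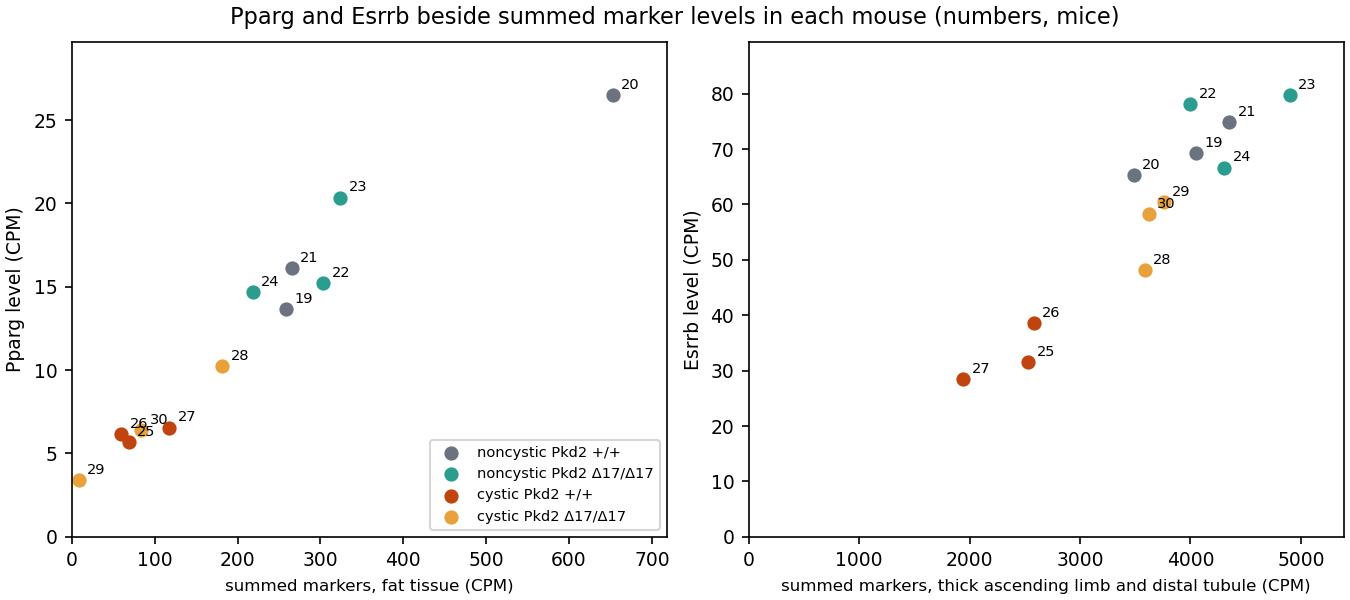
Left, Pparg level against the summed level of 8 fat tissue markers; right, Esrrb level against the summed level of 7 markers of the thick ascending limb and distal tubule; all axes are in CPM, points are the 12 mice with their numbers, and colours mark groups. Mouse 20 is highest and mouse 29 lowest on both axes of the left plot, and on the right the cystic Pkd2 +/+ mice are lowest on both axes.

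Rxra, a retinoid X receptor that pairs with the PPARs, measured 127, 124 and 144 CPM in the noncystic mice and 111, 108 and 107 CPM in the cystic mice. The groups lay apart, but the fall was small, with a log2 fold change of -0.28 ± 0.08 (SE) and an adjusted p of 0.015. This call was lost without mouse 21 (-0.23, adjusted p = 0.057) and with library totals (-0.12, adjusted p = 0.26), and the adjusted p ran from 0.0027 to 0.27 across the alternatives tried.

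Ppargc1a, the coactivator that drives mitochondrial biogenesis, measured 138, 125 and 122 CPM in the noncystic mice and 83.9, 66.7 and 77.0 CPM in the cystic mice. Every cystic value lay far below the lowest noncystic one, and the log2 fold change was -0.76 ± 0.10 (SE), with an adjusted p of 1.5e-05. Ppargc1b, its less abundant relative, measured 9.61, 10.2 and 10.02 CPM against 5.65, 5.19 and 6.36 CPM, a log2 fold change of -0.79 ± 0.17 (SE) with an adjusted p of 0.0015. The coactivators fell by similar amounts, and Ppargc1a kept 88.9% ± 1.02 (SD, n = 3) of the PGC-1 sum per length in cystic Pkd2 +/+ kidneys.

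Esrra measured 201, 202 and 208 CPM in the noncystic mice and 137, 120 and 130 CPM in the cystic mice, a log2 fold change of -0.66 ± 0.08 (SE) with an adjusted p of 7.1e-06. Esrrb, known for its role in stem cell self-renewal and also active in adult tissues, measured 69.3, 65.3 and 74.9 CPM against 31.6, 38.5 and 28.4 CPM. Its log2 fold change of -1.09 ± 0.12 (SE) had the smallest adjusted p of the 9 genes, 2.1e-06. Esrrg, which is enriched in tissues of high energy demand, measured 89.4, 76.1 and 87.8 CPM against 60.7, 53.2 and 56.2 CPM, a log2 fold change of -0.58 ± 0.08 (SE) with an adjusted p of 3.7e-05. None of the 3 ERR genes overlapped between groups, and all 3 retained their calls when any 1 of the 6 mice was left out.

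Summed per length, the ERR level was 71.6 ± 2.35 CPM per kb (SD, n = 3) in noncystic and 44.0 ± 2.06 CPM per kb in cystic Pkd2 +/+ kidneys. The PPAR sum was 18.4 ± 2.78 against 11.6 ± 1.04 CPM per kb, and its make-up shifted. Ppard accounted for 30.1% ± 3.82 of the PPAR sum in the noncystic kidneys and 50.8% ± 4.57 in the cystic ones, with ranges of 26.4% to 34.05% and 46.8% to 55.8%. Pparg went from 34.5% ± 11.2 to 17.9% ± 1.77, whereas the share of Ppara, 35.4% ± 8.81 and 31.2% ± 6.34, overlapped. In cystic Δ17/Δ17 kidneys the shares were 43.9% ± 7.03 for Ppard, 16.7% ± 6.44 for Pparg and 39.4% ± 3.13 for Ppara. These shares depend on the length used and are descriptions without a test. With the longest transcript as length, Ppard had the highest mean of the 3 PPAR genes in both Pkd2 +/+ groups. It was 11.1 CPM per kb in the noncystic and 11.9 CPM per kb in the cystic one.

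Across the 9 regulators, 8 had groups that did not overlap, against 41.7% of all genes. Cell type markers moved with them: the summed proximal tubule markers were 17517 to 17953 CPM in the noncystic and 6004 to 7743 CPM in the cystic mice, with 12 of 12 markers lower. The summed markers of the thick ascending limb and distal tubule were 3487 to 4353 against 1943 to 2581 CPM, with 5 of 7 lower and 1 higher. Collecting duct markers went the other way in sum, 1385 to 1536 against 1823 to 3444 CPM, with 3 of 9 higher and 3 lower. Podocyte markers were 552 to 658 against 319 to 370 CPM with 4 of 5 lower and 1 higher, endothelial markers were 1072 to 1200 against 671 to 816 CPM with 5 of 7 lower, and macrophage markers were 143 to 150 against 338 to 487 CPM with 7 of 7 higher. No marker on these 6 lists was at 0 in all mice of a group. The part of cell composition in the falls of the regulators was not tested.

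**Figure D4:**
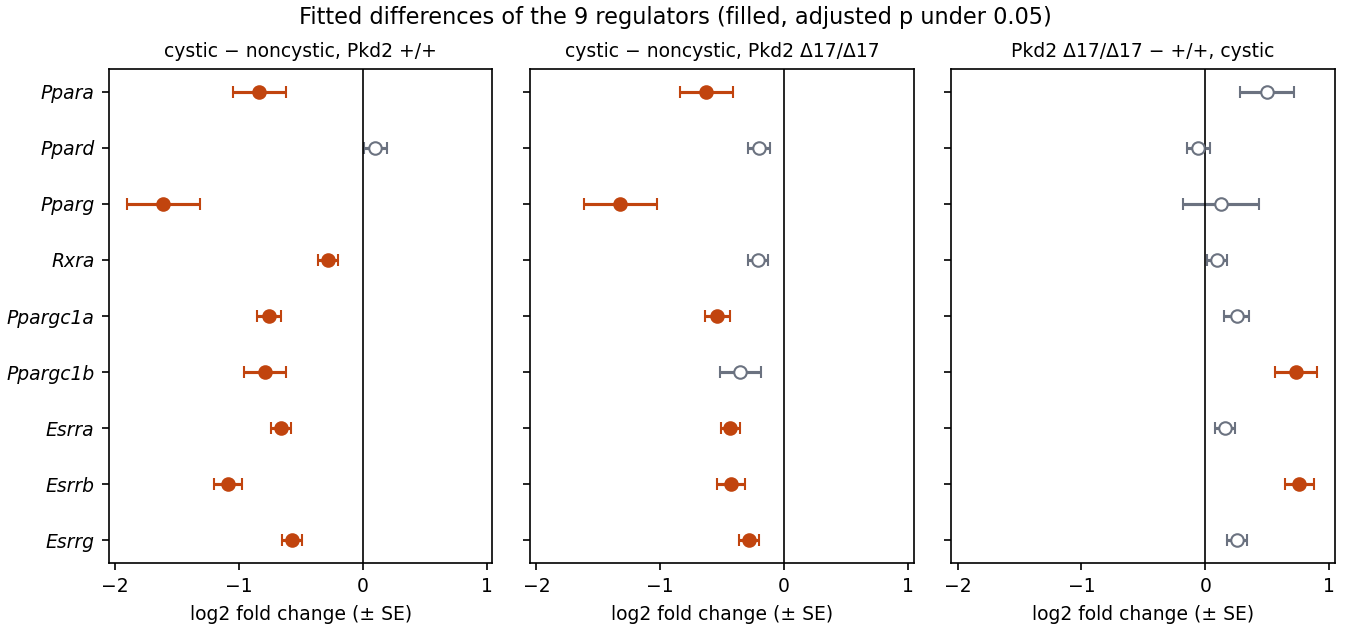
Log2 fold changes (x axis, with whiskers of 1 SE) of the 9 regulators in 3 comparisons; filled points passed an adjusted p of 0.05 and open points did not. In the left panel 8 genes lie below 0, in the middle panel 6 are called lower, and in the right panel Esrrb and Ppargc1b are called higher.

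Genes that these regulators are known to control were then examined from lists chosen for their function, with earlier results of these data known. Over all genes tested in this comparison, 14.2% were called lower, with a median log2 fold change of 0.02. Of 25 tested PPARα targets, 23 were lower in cystic Pkd2 +/+ kidneys and none was higher, with a median log2 fold change of -0.98. Among the larger falls were those of the fatty acid ω-hydroxylases Cyp4a14 (-1.92 ± 0.21 SE, adjusted p = 2.5e-06) and Cyp4a10 (-1.62 ± 0.18, adjusted p = 3.1e-06). Many of these enzymes are abundant in the proximal tubule, whose markers also fell, and the part of that segment was not tested. Plin2, which coats lipid droplets (-0.13 ± 0.11), and Fabp1, a fatty acid-binding protein (0.55 ± 0.69), did not pass.

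Of 10 PPARγ targets, 8 were lower and none higher, with a median of -1.37, against 14.2% of all genes called lower. The fatty acid transporter Cd36 (-1.81 ± 0.30 SE), the glycerol-3-phosphate dehydrogenase Gpd1 (-1.67 ± 0.16) and the fatty acid-binding protein Fabp4 (-1.59 ± 0.23) fell most. Cd36 and Fabp4 are also abundant in fat tissue and its vessels, whose part was not tested. Cd36 was in addition the gene whose pattern over the 12 mice was nearest to that of Pparg among 13690 genes.

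Of 24 ERR and PGC-1 targets, 19 were lower and 1 was higher, with a median of -0.56, against 14.2% of all genes called lower. Among the larger falls were those of the succinate dehydrogenase subunit Sdhb (log2 fold change of -1.002 ± 0.102 SE) and the mitochondrial superoxide dismutase Sod2 (-0.97 ± 0.09). The gene that rose was Nrf1, itself a transcription factor for respiratory genes (0.34 ± 0.09 SE, adjusted p = 0.010), named here after its value was seen. The lists differ in size and in background, and no test was made between them.

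Among 16 partners and coregulators, 3 were lower and 2 higher, with a median of 0.06. That count is near the 31.1% of all genes that passed in either direction. Rxrg, a retinoid X receptor of low level, was 2.31 ± 1.03 CPM in noncystic and 0.41 ± 0.08 CPM in cystic Pkd2 +/+ kidneys (SD, n = 3), a log2 fold change of -2.46 ± 0.53 (SE). Lpin1, a lipin that also coactivates PPARα, was lower by 2.93-fold. Pprc1, the third PGC-1 family gene, was 1.92-fold higher, opposite in direction to Ppargc1a and Ppargc1b, with an adjusted p of 8.5e-06. With library totals, 10 of the 16 passed in place of 5, while the share of all genes was 35.4% in edgeR and 35.8% in limma.

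**Figure D5:**
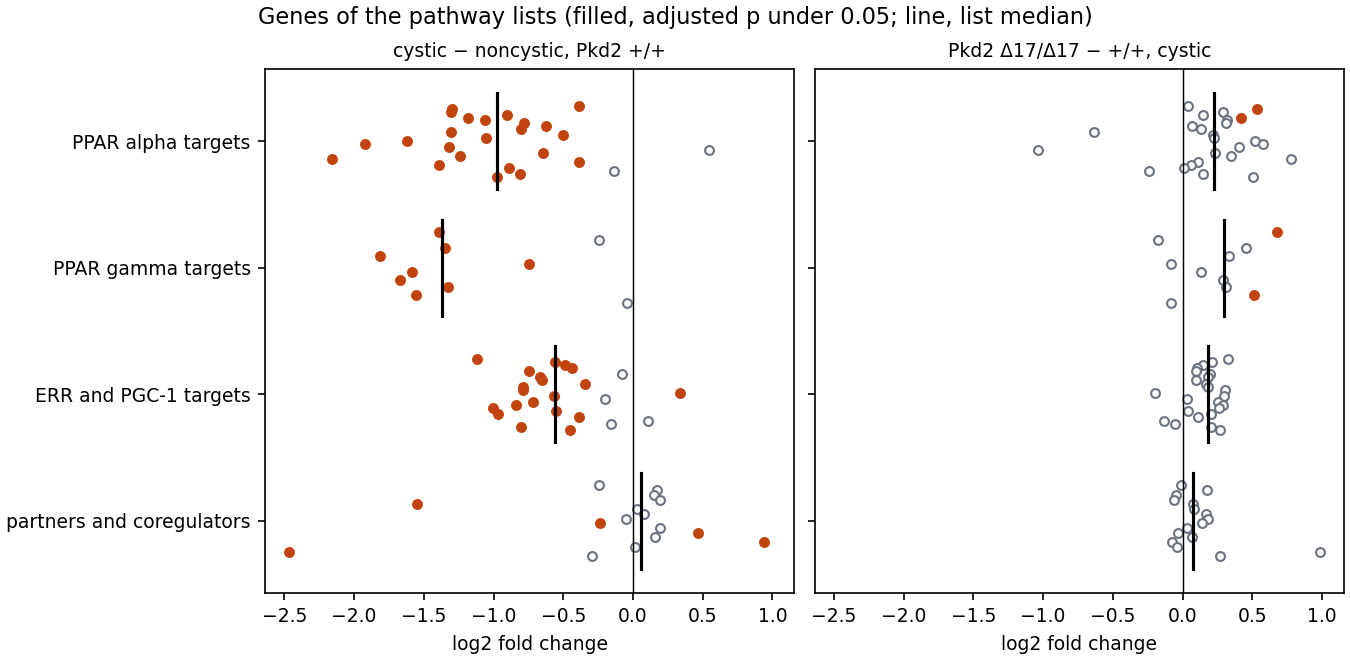
Log2 fold change (x axis) of each gene on the 4 pathway lists in cystic against noncystic Pkd2 +/+ kidneys (left) and in cystic Δ17/Δ17 against cystic Pkd2 +/+ kidneys (right); filled points passed an adjusted p of 0.05 and the vertical line in each list is its median. The 3 target lists lie mostly below 0 on the left and nearer to 0 on the right, where 4 genes passed.

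The next comparison asked whether removing the miR-17 motif of Pkd2 changes these genes in the cystic kidney. It uses the same 3 cystic Pkd2 +/+ mice as the first comparison, so the results are not independent of one another. Esrrb was 1.69-fold and Ppargc1b 1.66-fold higher in cystic Δ17/Δ17 kidneys, and the other 7 regulators did not pass. Without mice 20 and 29 Esrrb alone passed, and without mice 27 and 30 both did. Over all genes, 2.23% passed in either direction and 1.19% passed as higher. The median of the 9 genes was 0.25, against 0.00 for all genes.

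Esrrb measured 48.2, 60.5 and 58.2 CPM in Δ17/Δ17 mice 28, 29 and 30, against 31.6, 38.5 and 28.4 CPM in mice 25, 26 and 27. All 3 Δ17/Δ17 values were above the cystic Pkd2 +/+ range and below the noncystic one, which began at 65.3 CPM. Its log2 fold change was 0.76 ± 0.12 (SE), with an adjusted p of 0.0032, and it passed under every alternative tried (adjusted p up to 0.035). The summed markers of the thick ascending limb and distal tubule moved in the same direction, from 1943 to 2581 CPM up to 3585 to 3760 CPM, with 2 of 7 markers called higher. The part of these segments in the level of Esrrb was not tested.

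Ppargc1b measured 9.85, 11.0 and 7.79 CPM in the Δ17/Δ17 mice, against 5.65, 5.19 and 6.36 CPM. The lowest Δ17/Δ17 value lay above the highest cystic Pkd2 +/+ value, and 2 of the 3 values fell within or above the noncystic Pkd2 +/+ range of 9.61 to 10.2 CPM. Its log2 fold change was 0.74 ± 0.17 (SE), with an adjusted p of 0.031. The call was lost without mouse 26, 27, 28 or 29 in turn and when only the cystic groups were fitted. Over all alternatives the adjusted p ran from 0.0015 to 0.20, while the log2 fold change stayed between 0.62 and 0.94.

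Esrrg and Ppara came next. Esrrg measured 71.6, 67.0 and 64.8 CPM against 60.7, 53.2 and 56.2 CPM, groups that did not overlap, with a log2 difference of 0.26 ± 0.08 (SE) and an adjusted p of 0.12. Ppara measured 24.3, 18.4 and 16.98 CPM against 16.7, 9.84 and 15.6 CPM, also without overlap, with a log2 difference of 0.50 ± 0.22 (SE) and an adjusted p of 0.29. Ppara passed with no cutoff on low counts (adjusted p = 0.0032), and its adjusted p reached 0.68 under other alternatives. In all, 4 of the 9 genes did not overlap between these groups, against 19% of all genes.

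Ppargc1a measured 91.0, 98.9 and 81.2 CPM against 83.9, 66.7 and 77.0 CPM, and mouse 30 fell inside the range of the cystic Pkd2 +/+ mice. Its log2 difference of 0.25 ± 0.10 (SE) had an adjusted p of 0.23. Esrra measured 149, 147 and 136 CPM against 137, 120 and 130 CPM, with a difference of 0.16 ± 0.08 (SE) and an adjusted p of 0.38. In both genes mouse 30 lay below mouse 25 alone, and the other cystic Δ17/Δ17 mice lay above all 3 cystic Pkd2 +/+ mice.

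Pparg varied most in the cystic Δ17/Δ17 group, with 10.2, 3.42 and 6.40 CPM against 5.69, 6.17 and 6.54 CPM. The lowest value was that of mouse 29, whose summed fat markers were lowest. The log2 difference was 0.13 ± 0.30 (SE), and it turned to -0.32 without mouse 28. Rxra at 126, 119 and 103 CPM (0.09 ± 0.08 SE) and Ppard at 41.2, 43.2 and 43.3 CPM (-0.06 ± 0.09 SE) overlapped with the cystic Pkd2 +/+ mice. The SEs still allow modest differences, so equal levels are not shown.

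Summed over the list, PPARα targets were 2954 to 3306 CPM in cystic Pkd2 +/+ kidneys and 3530 to 4015 CPM in cystic Δ17/Δ17 kidneys, and ERR and PGC-1 targets were 7150 to 7492 and 7770 to 9054 CPM. Neither sum overlapped, whereas the PPARγ target sums, 726 to 900 and 863 to 1247 CPM, did. Few single genes passed the test, for which the share of all genes called higher was 1.19%. Among PPARα targets 2 of 25 were higher and none lower: the peroxisomal thiolase Acaa1b (0.54 ± 0.12 SE, adjusted p = 0.027) and the medium-chain acyl-CoA dehydrogenase Acadm (0.42 ± 0.10, adjusted p = 0.048). Among PPARγ targets 2 of 10 were higher, the acyl-CoA synthetase Acsl1 (0.68 ± 0.12 SE, adjusted p = 0.0096) and the glucose transporter Slc2a4 (0.52 ± 0.12, adjusted p = 0.031). None of the 24 ERR and PGC-1 targets and none of the 16 partners passed edgeR's test, while 13 and 1 of them had an unadjusted p under 0.05. The groups did not overlap for 15 of 25 PPARα, 3 of 10 PPARγ and 15 of 24 ERR and PGC-1 targets, against 19% of all genes. These counts cover both directions. The PPARα targets Angptl4 (-0.64 ± 0.17 SE, adjusted p = 0.060) and Plin2 (-0.24 ± 0.11) were lower in Δ17/Δ17 kidneys. So was Nrf1 (-0.20 ± 0.09) among the ERR and PGC-1 targets, and the others in these counts were higher. The list medians were 0.23, 0.30, 0.18 and 0.07. Without mouse 26, 27 or 29, no PPARα target passed, and without mouse 28 no PPARγ target passed, while DESeq2 called 4 PPARα and 3 ERR and PGC-1 targets. Proximal tubule markers were 7983 to 9583 CPM against 6004 to 7743 CPM, with 3 of 12 called higher, and macrophage markers were 252 to 329 CPM against 338 to 487 CPM, with 4 of 7 called lower. Their part was not tested.

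In noncystic kidneys, where the motif deletion was compared without disease, none of the 9 regulators passed edgeR's test, and 1 of them, Ppard, had an unadjusted p under 0.05. Of all 24642 genes tested, 0.00406% passed and 1556 had an unadjusted p under 0.05. DESeq2 and limma called 0 of the 9. Ppard measured 47.3, 52.3 and 47.3 CPM in Δ17/Δ17 mice 22, 23 and 24, all above the 37.7 to 46.6 CPM of the noncystic Pkd2 +/+ mice, with a log2 difference of 0.25 ± 0.09 (SE) and an adjusted p of 0.77. Ppargc1b measured 10.3, 11.4 and 14.9 CPM, also above the 9.61 to 10.2 CPM of the Pkd2 +/+ mice, with a difference of 0.30 ± 0.16 (SE). Ppara, the gene with the seed match, measured 28.6, 32.6 and 31.1 CPM within the wider range of 19.2 to 35.1 CPM, with a difference of 0.29 ± 0.21 (SE). The remaining 6 genes lay between -0.16 (Pparg) and 0.10 (Esrrb), and the groups overlapped for each.

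With Pkd2 Δ17/Δ17 in both groups, cystic kidneys again had lower levels than noncystic ones. These 6 mice also serve in the comparisons of the motif deletion. Of the 9 genes, 6 passed as lower and none as higher, against 23% of all genes in either direction and 10.2% as lower. The median log2 fold change of the 9 genes was -0.43, against 0.00 for all genes. Pparg measured 15.2, 20.3 and 14.7 CPM in noncystic Δ17/Δ17 mice 22, 23 and 24, all above the 3.42 to 10.2 CPM of the cystic Δ17/Δ17 mice, a log2 fold change of -1.32 ± 0.30 (SE). Ppargc1a measured 130, 143 and 120 CPM in those mice, above the 81.2 to 98.9 CPM of the cystic ones (-0.54 ± 0.10). Esrra measured 191, 181 and 212 CPM, above 136 to 149 CPM (-0.43 ± 0.08). These 3 genes thus kept clear gaps between the groups. Fat markers summed to 218 to 324 CPM in these noncystic mice and 8.02 to 181 CPM in the cystic ones, and without mice 20 and 29 the log2 fold change of Pparg was -1.01 (adjusted p = 0.0035, with a range of 1.8e-14 to 0.021 over its alternatives).

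The gaps were narrower for the other receptors that passed. Esrrb measured 78.1, 79.8 and 66.7 CPM in the noncystic Δ17/Δ17 mice, and the highest cystic value was 60.5 CPM (-0.43 ± 0.11 SE). Esrrg measured 87.7, 80.02 and 80.3 CPM, and the highest cystic value was 71.6 CPM (-0.29 ± 0.08). For Ppara the lowest noncystic value was 28.6 CPM and the highest cystic one 24.3 CPM (-0.63 ± 0.21). Ppargc1b at -0.35 ± 0.16 (adjusted p = 0.15), Rxra at -0.21 ± 0.08 (adjusted p = 0.073) and Ppard at -0.20 ± 0.09 (adjusted p = 0.13) did not pass.

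In these Δ17/Δ17 groups the calls of Pparg, Ppargc1a and Esrra held when any of the 6 mice was left out. The call of Ppara was lost without mouse 22, 23, 24, 29 or 30, that of Esrrg without mouse 22, 29 or 30, and that of Esrrb without mouse 28. With library totals, which moved the median of all genes to 0.15, only Pparg, Ppargc1a and Esrra passed. Without mice 20 and 29, 5 of the 9 passed, and without mice 27 and 30, 4 passed. Summed per length, the ERR level was 53.0 ± 1.79 CPM per kb (SD, n = 3) in cystic Δ17/Δ17 kidneys and 70.1 ± 2.51 in noncystic Δ17/Δ17 kidneys, and the PGC-1 sum was 16.1 ± 1.75 and 22.96 ± 1.45. Of all genes, 10.2% were called lower in this comparison. Among the targets, 24 of 25 for PPARα, 8 of 10 for PPARγ and 18 of 24 for ERR and PGC-1 were lower. None of the targets was higher, and their medians were -0.80, -0.90 and -0.38. Proximal tubule markers fell with them, from 17828 to 19231 CPM down to 7983 to 9583 CPM, with 11 of 12 called lower, and their part was not tested.

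Whether the motif deletion acted differently in cystic and noncystic kidneys was tested as an interaction, in which a positive value means that the Δ17/Δ17 group was raised more in the cystic state. None of the 9 genes passed edgeR's test, and 3 had an unadjusted p under 0.05. Of all 24642 genes tested, 0.0122% passed and 2053 had an unadjusted p under 0.05. The largest value among the 9 was that of Esrrb at 0.66 ± 0.16 (SE), with an adjusted p of 0.21, and DESeq2 called it (adjusted p = 0.036). Its adjusted p ran from 0.00030 to 0.54 across the alternatives tried. Esrrg followed in unadjusted p at 0.29 ± 0.12 (adjusted p = 0.51) and Ppard at -0.30 ± 0.13 (adjusted p = 0.54), the only one of the 9 with a negative value.

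To describe the company each regulator kept, the genes nearest in pattern were found by the root mean square difference of centred log2 CPM over the 12 mice. This distance grows with how much a gene itself varies, and the 8 regulators other than Ppard differed from their own means by 0.15 (Rxra) to 0.84 (Pparg) log2 units by the same measure. The nearest genes were Fbxo7 at 0.05 and Nat9 at 0.05 log2 units for Esrra and Mapk14 at 0.05 and Xpot at 0.05 for Rxra. Ppargc1a was nearest to Podn (0.06) and Rnf152 (0.08), Esrrg to Trp53bp2 (0.07) and Arhgap5 (0.07), and Esrrb to Cyfip2 (0.12) and Pcsk6 (0.14). Ppara was nearest to Afmid (0.14) and Dnajc6 (0.16), Ppargc1b to Tcf24 (0.15) and Pde9a (0.17), and Pparg to Cd36 (0.19). None of the 9 regulators was among the 2 nearest genes of another. The median gene differed from these 8 regulators by 0.27 to 0.87 log2 units, and since all these genes share the same 12 libraries, the likeness is a description.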

How the data were processed

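Whole kidneys of 12 mice were sequenced as RNA. Per the authors' methods and the submitters' processing notes, reads were trimmed with Trim Galore 0.6.3 and aligned with STAR 2.5.3a to GRCm38 with an Ensembl annotation, and the authors deposited STAR's raw read counts per gene, unnormalised. The strand setting of the counting was not given in the sources used here. The authors' own test was limma-trend. The genes described and the gene lists were chosen with earlier results of these data known.

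Here, genes with an average log2 CPM under -3 were removed (24642 of 54532 were kept), libraries were scaled by TMM, and all 12 mice were fitted with 1 mean per group by edgeR 4.0.16 (quasi-likelihood test, R 4.3.3) with Benjamini-Hochberg adjustment over all tested genes and a threshold of 0.05. Scaling factors lay between 0.933 and 0.972 for noncystic kidneys and between 1.04 and 1.08 for cystic kidneys, where the 10 most abundant genes took 4.86% to 5.93% of counts, against 8.91% to 9.76% in noncystic kidneys. No mice of a group agreed within sampling noise (chi-square per degree of freedom 8.88 to 24.3). Fold changes are differences of fitted log2 means. Their SEs were derived from the test, as the absolute log2 fold change divided by the square root of its F statistic. Levels per length used the union of GENCODE M21 exons, and 54495 of 54532 gene IDs matched. Named genes were all 9 regulators, the called target genes with the largest changes per list and, as nearest patterns, the 2 closest of 13690 genes with an average log2 CPM of at least 1. Some genes that this rule names are not reported here. Alternatives were limma 3.58.1, DESeq2 1.42.0, other scaling factors and cutoffs, the compared groups alone, Xist as a covariate and each mouse left out. The fits without mice 20 and 29, or 27 and 30, were added after seeing the data. The scripts were tested on simulated counts. Protein sequences were not used here.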

Additional observations from a re-analysis of the deposited data

How the results depend on the processing

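No paired analysis was possible because each mouse has its own number and no number is shared between groups. Without mice 20 and 29 or 27 and 30 (chosen after seeing the data), and under all other alternatives except single mice left out, 8 regulators passed in cystic against noncystic Pkd2 +/+ kidneys, and 7 to 8 with single mice left out. With library totals one of the 8 was Ppard, higher, in place of Rxra. The share of calls that were higher rose from 54.4% to 71.7% over all genes with library totals (55.7% to 76.3% with Pkd2 Δ17/Δ17). PPARα and PPARγ target counts there were 23 and 8 throughout. Partners passed 8 times with edgeR's own expression filter and 10 times with library totals in edgeR or limma. The shares of all genes there were 45.1% with that filter, 35.4% with library totals in edgeR and 35.8% in limma. For Δ17/Δ17 against +/+ in cystic kidneys, 1 regulator passed with the compared groups only or without mice 20 and 29, 3 with no cutoff (Ppara added), and 1 to 2 with single mice left out. PPARα targets passed 4 (DESeq2), 1 (Xist), 11 (no cutoff), 0 (either pair of mice left out) and 0 to 4 times (single mice). PPARγ targets passed 1 (compared groups only, or either pair of mice left out), 4 (no cutoff) and 0 to 2 times. ERR and PGC-1 targets passed 3 (DESeq2), 1 (expression filter, library totals, limma), 2 (no cutoff) and 0 to 1 times. For cystic against noncystic Δ17/Δ17 kidneys, 3 regulators passed with library totals in edgeR or limma, 7 (Rxra added) with DESeq2, its size factors or the expression filter, and 4 to 6 with single mice left out. For the interaction, 1 passed with DESeq2 or no cutoff, and 0 to 1 with single mice left out. The cause of these moves was not tested.

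Over all genes, the 549 calls for Δ17/Δ17 against +/+ in cystic kidneys became 167 (compared groups only), 1128 (DESeq2), 1639 (no cutoff), 115 (without mice 20 and 29), 322 (without mice 27 and 30) and 118 to 861 (single mice), and the 3 interaction calls became 134 with DESeq2, 566 with no cutoff, 0 with the expression filter, 8 and 9 with library totals (edgeR, limma), 13 with Xist, 1 without mice 20 and 29, 20 without mice 27 and 30, and 0 (without mouse 19, 23, 24, 27 or 29) to 61 (without mouse 25) with single mice left out. In noncystic kidneys 1 gene became 3 with DESeq2 and 124 with no cutoff.

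Small differences changed sign. Pparg in cystic Δ17/Δ17 against +/+ kidneys was -0.0019 with limma and -0.32 to 0.44 with single mice left out, and Pkd1 was -0.048 to 0.093. In noncystic kidneys Pparg was 0.17 and Rxra -0.014 without mice 20 and 29, and Ppargc1a -0.0008 with Xist. With single mice left out, Pparg there was -0.35 to 0.16, Ppargc1a -0.041 to 0.091, Esrrg -0.11 to 0.012 and Rxra -0.024 to 0.094. Pkd1 in cystic against noncystic Δ17/Δ17 kidneys was -0.013 to 0.13, and the interaction was -0.10 to 0.38 for Ppara and -0.16 to 0.60 for Pparg. The level of Esrra was 67.4 CPM per kb with the longest transcript as length, and it still ranked highest, while Ppargc1a then overlapped Esrrg in both cystic groups. With that length Ppard, not Ppara, had the highest mean of the PPAR genes in noncystic Pkd2 +/+ kidneys. With 3 mice per group, the SEs of 0.08 to 0.30 for the 9 genes between groups and of 0.11 to 0.42 for the interaction limit what could be detected.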

Other observations

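The annotated start sites of the 9 genes gave 15 promoter windows of 300 bases (RefSeq, GRCm38.p6), none of them for Ppargc1b. None of the 15 held the PPAR element AGGTCANAGGTCA on either strand, which 0.0396% of 32851 promoter windows of that length held, and none held the ERR element TCAAGGTCA, which 0.423% held. The half-site AGGTCA, which both longer motifs contain and which was searched after the others, was in 3 of the 15 against 16.3% of all windows. These counts describe letters in the windows only.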
